A study of Mus musculus with 24 samples.

Results

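Cultured fibroblasts of mouse embryos (MEF) were examined 12 h after starved cultures were refed with serum and were set against MEF that were never synchronised. Both groups had 2 arrays, chosen by their sample labels, so the comparison uses 4 of the 24 Affymetrix Mouse Gene arrays of a time course. The cells of both groups were early passage MEF grown in DMEM with 10% foetal calf serum (FCS) and antibiotics. The 12 h cells had first been kept for 48 h in low serum and were then returned to medium with 10% FCS, and the labels describe them as being in synchronous mid proliferation. The low serum held 0.5% FCS according to the sample protocol, whereas the design text states 0.1%. The unsynchronised cells were growing cultures, and neither the time of their harvest nor the age of their medium is given in the sources used here. Starved cells before refeeding (0 h) and cells 18 h and 24 h after refeeding, also with 2 arrays each, are used below to place the 12 h values in the course. The strain of the embryos is also not given. The labels call the duplicates biological replicas, but nothing says that each came from a culture of its own. The p-values therefore reflect only how far duplicate arrays lie apart, pooled over all groups of the series with 2 arrays. Part of that spread may be technical.

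Fibroblasts that lack serum leave the cell cycle and rest. When serum returns they pass through a growth phase (G1), copy their DNA (S phase) and then prepare for and enter mitosis (G2 and M), whereas an unsynchronised culture holds cells of every phase at once. The genes of replication are switched on largely by E2F transcription factors late in G1, and those of mitosis later. Control of the mitotic genes runs through the DREAM and MuvB complexes, which act at sites called CHR, and through NF-Y at CCAAT boxes.

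Over the 9967 genes tested, 510 (5.12%) were higher and 288 (2.89%) were lower at 12 h than in unsynchronised cells (limma, adjusted p under 0.05), which makes 798 genes or 8.01% in all. Of these, 148 genes (1.48%) were higher and 136 (1.36%) lower by at least 2-fold. At an unadjusted p under 0.05 (limma) 2335 of the 9967 genes passed in either direction. Counts of list members at that level, given below, stand beside this share. Of the 12 largest falls, 9 belonged to the lists of mitotic genes. Where a named gene lay under 20, the minimum used to choose genes, on both arrays of the lower group, its fold is given as a lower bound against 20, which is no measured background of the arrays. Both 12 h arrays lay on the same side of both unsynchronised arrays for 5864 of the genes tested (58.8%), so a lack of overlap alone says little about a gene. The 12 largest rises and the 12 largest falls were picked only among genes without overlap. For those genes the lack of overlap was fixed in advance and adds no support. The median of all genes lay 0.07 above 0 on the log2 scale. The share of calls in the higher direction, 63.9% with the deposited normalisation, was 55.1% (434 higher, 354 lower) when each array was centred on its median and 51.3% (372 higher, 353 lower) after a further quantile normalisation. The counts of higher and of lower genes fell with any of the 4 arrays left out. Such a fit leaves 1 array in a group and widens the standard error. Fewer calls in such fits, here and below, therefore do not by themselves single out an array.

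The label of the cells was checked against markers. All 13 fibroblast markers passed the minimum, with a summed intensity of 19112 and 19972 on the 12 h arrays and 16392 and 17083 on the unsynchronised arrays, and 3 of them were higher at 12 h (Col3a1, Pdgfra and Fap). On the array, of the endothelial, epithelial, muscle and neural markers 9 of 10, 9 of 9, 8 of 10 and 6 of 9 lay below 20 on all 4 arrays. Macrophage and leukocyte markers were detected: their summed intensity was 1935 and 1847 at 12 h and 1230 and 1219 in unsynchronised cells, and 4 of 13 tested (Mrc1, Adgre1, Cd68 and Tyrobp) were higher at 12 h. Of the 16 markers listed, Ptprc, Fcgr1, Laptm5 and Lyz1 stayed below 20 on all 4 arrays, and the others did not. C1qb, for example, read 266 and 178 at 12 h and 95.3 and 142 in unsynchronised cells. All 13 tested had a positive difference, with a median of 0.76, and 9 were higher at an unadjusted p under 0.05 (limma). Among markers of adipocytes and cartilage cells 7 of 11 lay below 20, Sox9 was higher at 12 h, and the sum was 516 and 512 at 12 h and 350.1 and 359 in unsynchronised cells.

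**Figure D1:**
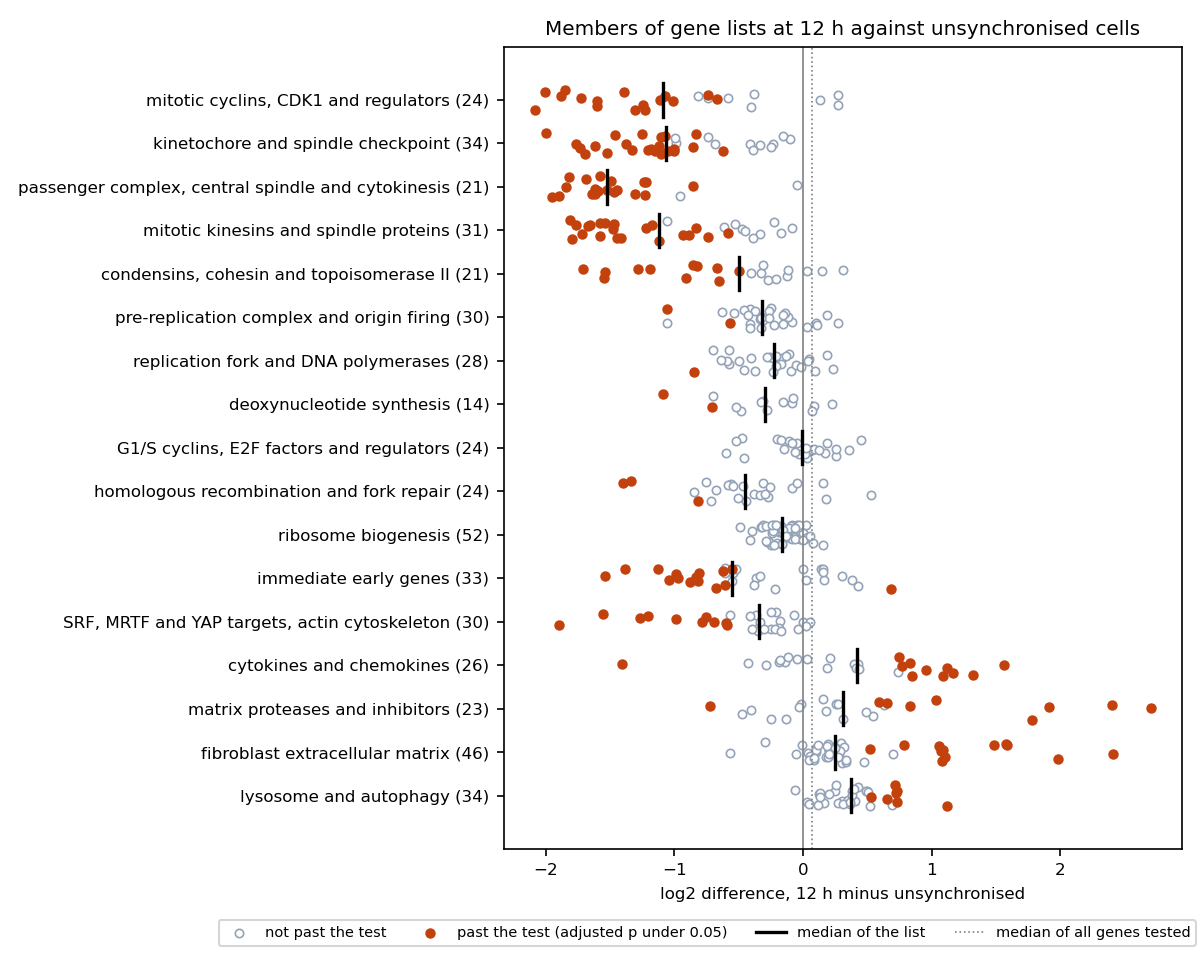
Difference between 12 h and unsynchronised cells for the members of 17 gene lists (log2 intensity, mean of 2 arrays minus mean of 2 arrays; the number of members tested stands in brackets). Filled points passed the test, open points did not, black bars are list medians and the dotted line is the median of all genes; the mitotic lists lie to the left and the protease, cytokine, matrix and lysosome lists to the right.

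Genes of mitosis were below the unsynchronised level. Of 131 genes in 5 lists of mitotic functions, which do not share members, those past the test were all lower at 12 h: 16 of 24 mitotic cyclins, Cdk1 and regulators, 23 of 34 genes of the kinetochore and spindle checkpoint, 19 of 21 of the passenger complex, central spindle and cytokinesis, 21 of 31 mitotic kinesins and spindle proteins, and 11 of 21 of the condensins, cohesin and topoisomerase II. The list medians were -1.09, -1.06, -1.52, -1.12 and -0.50 on the log2 scale, against 0.07 for all genes. In RNA from whole cultures a smaller share of cells in mitosis and less of these transcripts in each cell cannot be told apart. The counts of 3 of these lists depended on single arrays by more than 1.5 times: for the kinetochore list 8 genes were lower without the first 12 h array, and 14 without either unsynchronised array, for the kinesins 13 without the first 12 h array, and for the condensin list 4, 5 and 4 without the first 12 h array and the first and second unsynchronised array.

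Ccnb1, the B-type cyclin that activates Cdk1 at mitotic entry, had intensities of 64.04 and 78.3 at 12 h, against 277 and 290.4 in unsynchronised cells, a log2 difference of -2.001 (SE 0.16, limma adjusted p = 0.00013). Ccnb2, the second B-type cyclin, stood at 81.8 and 65.5 at 12 h against 274 and 351 in unsynchronised cells, a log2 difference of -2.08 (SE 0.23, limma adjusted p = 0.0005). The arrays of the groups did not overlap for either cyclin, and both 12 h arrays were also below the 24 h arrays (351 and 269 for Ccnb1 and 346 and 327 for Ccnb2). The 12 h intensity of Ccnb2 was lower even than that of starved cells, 193 and 118 (log2 difference from 0 h of -1.05, limma adjusted p = 0.0064). Cdk1 itself, the kinase that drives mitosis, read 144 and 175 at 12 h and 325 and 360.2 in unsynchronised cells, a smaller log2 difference of -1.11 (SE 0.15, limma adjusted p = 0.0014). Unlike the B-type cyclins it had already risen above the starved level of 106 and 91.2 (log2 difference from 0 h of 0.69, limma adjusted p = 0.006). Ccna2, the cyclin that serves in S phase as well as in G2, behaved alike: its intensities were 237 and 259 at 12 h and 599.8 and 559 in unsynchronised cells (log2 difference of -1.22, SE 0.14, limma adjusted p = 0.00057), and 12 h lay above 0 h by 0.45 on the log2 scale (limma adjusted p = 0.033).

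The regulators of mitotic exit and of the spindle poles fell with the cyclins. Cdc20, the activator of the anaphase-promoting complex, had 131 and 128 at 12 h and 450.2 and 503 in unsynchronised cells, a log2 difference of -1.88 (SE 0.14, limma adjusted p = 0.00013). The kinase Aurka, which matures the spindle poles, read 65.97 and 87.1 at 12 h against 239 and 312 in unsynchronised cells (-1.85), and Plk1, the Polo kinase of mitosis, 173 and 202 at 12 h against 509.8 and 629.8 in unsynchronised cells (-1.60). For all 3 genes both 12 h arrays were below both unsynchronised arrays. Among kinetochore genes, the motor Cenpe stood at 46.3 and 72.9 at 12 h and 225 and 238 in unsynchronised cells, with a log2 difference of -1.99 (SE 0.28, limma adjusted p = 0.0016). The large kinetochore protein Cenpf fell by 1.76 on the log2 scale, and the checkpoint kinases Bub1b and Bub1 fell by 1.73 and 1.69.

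Genes of cell separation had the lowest list median. Kif23, the motor subunit of centralspindlin, had 58.6 and 95.1 at 12 h and 273 and 305 in unsynchronised cells, a log2 difference of -1.95 (SE 0.22, limma adjusted p = 0.00057). Fam83d, which brings casein kinase 1 to the spindle, read 32.1 and 39.2 at 12 h against 115 and 153 in unsynchronised cells (log2 difference -1.90), Kif14, a kinesin of the midbody, 13.9 and 18.04 at 12 h against 53.05 and 60.6 in unsynchronised cells (at least 2.84-fold lower), and Gas2l3, which links actin to microtubules during cytokinesis, 18.2 and 21.8 at 12 h against 66.98 and 73.2 in unsynchronised cells (-1.82). In all of them both 12 h arrays were below both unsynchronised arrays. The kinesins that build the bipolar spindle, Kif11 and Kif15, and the microtubule depolymerase Kif2c differed by -1.71, -1.77 and -1.79, and the spindle protein Hmmr by -1.81. Chromosome structure genes were lower too: the condensin subunit Ncapd2 had 45.6 and 66.95 at 12 h and 179 and 181 in unsynchronised cells, topoisomerase Top2a 119 and 175 at 12 h and 421 and 417 in unsynchronised cells, and the proliferation marker Mki67 146 and 218 at 12 h and 507 and 531 in unsynchronised cells. Their log2 differences were -1.71, -1.54 and -1.54, and on each of the 3 genes the first 12 h array was the lower of the pair.

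**Figure D2:**
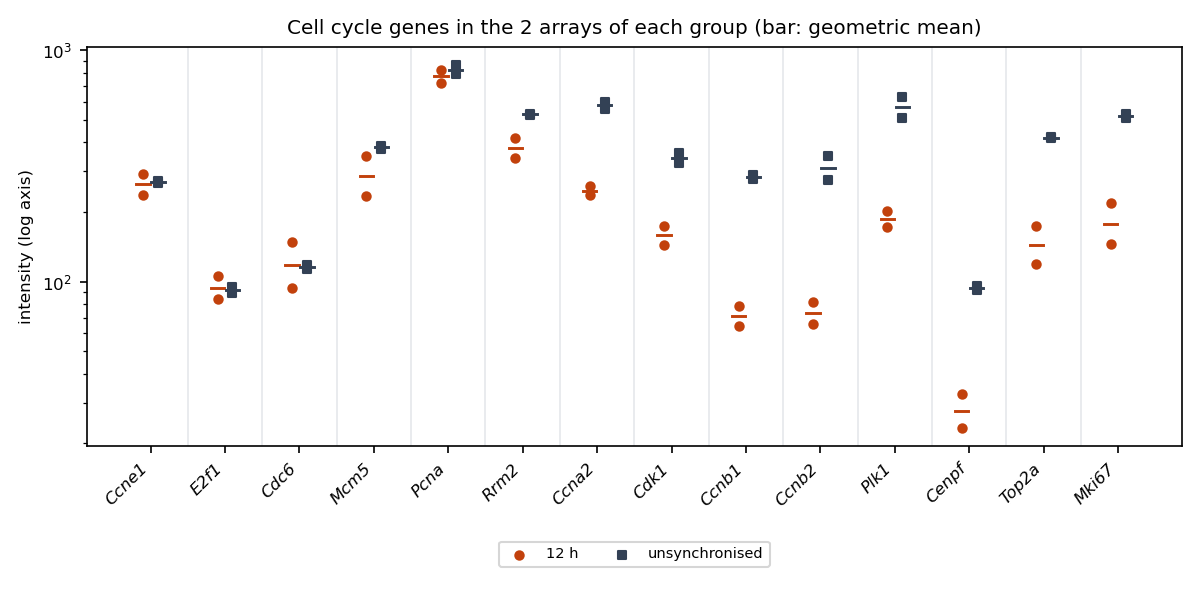
Intensity (log axis) of 14 cell cycle genes on the 2 arrays at 12 h (circles, left of each pair) and the 2 unsynchronised arrays (squares, right), with the geometric mean as a bar. From Ccna2 to Mki67 both 12 h arrays lie below both unsynchronised arrays, whereas for Ccne1, E2f1, Cdc6 and Pcna the groups overlap.

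Since CHR and CCAAT elements are named above for genes of mitosis, the sequence around the start sites of mitotic genes that fell was read. The 3 promoters shown belong to the G2-M genes with the largest falls that hold a CHR letter match. They are RefSeq windows of mouse build GRCm38.p6 that run from 250 bases before to 50 bases after the annotated start, 5′ to 3′ on the strand of the gene: Ccnb2 (chr9:70421505-70421804, minus strand), Kif23 (chr9:61946750-61947049, minus strand) and Fam83d (chr2:158767849-158768148, plus strand). Capitals mark matches on either strand to CHR (TTTGAA or TTCGAA) and to the CCAAT box (CCAAT).
Ccnb2: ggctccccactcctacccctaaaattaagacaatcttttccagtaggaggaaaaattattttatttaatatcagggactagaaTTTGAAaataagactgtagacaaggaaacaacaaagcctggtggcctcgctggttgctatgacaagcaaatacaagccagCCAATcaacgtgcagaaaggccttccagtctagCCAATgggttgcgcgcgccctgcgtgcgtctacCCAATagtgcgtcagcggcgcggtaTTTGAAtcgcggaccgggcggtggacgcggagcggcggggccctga
Kif23: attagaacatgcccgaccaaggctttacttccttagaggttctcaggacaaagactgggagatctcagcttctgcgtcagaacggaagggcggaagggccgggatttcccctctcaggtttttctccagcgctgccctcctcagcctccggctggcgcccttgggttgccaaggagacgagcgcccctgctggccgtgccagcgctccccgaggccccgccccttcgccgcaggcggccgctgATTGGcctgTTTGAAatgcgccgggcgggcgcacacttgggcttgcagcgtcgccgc
Fam83d: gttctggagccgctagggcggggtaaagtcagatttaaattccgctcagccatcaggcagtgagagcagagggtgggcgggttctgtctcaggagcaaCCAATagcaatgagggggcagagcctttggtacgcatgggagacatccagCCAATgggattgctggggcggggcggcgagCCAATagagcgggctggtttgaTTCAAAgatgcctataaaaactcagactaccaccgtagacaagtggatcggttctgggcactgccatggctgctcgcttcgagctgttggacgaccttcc
In Ccnb2 a CHR match starts at position 5 after the start and another at -167, with CCAAT matches at -87, -54 and -21. Kif23 has its CHR match at position 3 and a CCAAT match on the other strand at -7, and Fam83d has its CHR match at -50, on the other strand, behind CCAAT matches at -152, -102 and -72. Among the 94 windows found for the 114 G2-M genes that were lower at 12 h, 63 (67.0%) held a CHR match and 62 (66.0%) a CCAAT match. Of the 197 windows of all G2-M genes tested, 92 (46.7%) held a CHR match and 122 (61.9%) a CCAAT match. Of the 225 windows of all genes that were lower, 101 (44.9%) and 122 (54.2%) did. Over all 27025 promoter windows the shares were 19.4% and 37.9%, and over the 7935 windows of the genes tested 13.4% and 38.5%. These are matches of letters, with no measure of binding, and they are given as a description.

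Fewer genes that act before and during DNA replication passed the test. None of 24 cyclins, E2F factors and regulators of the G1/S transition passed the test in either direction, with a median difference of -0.01 (limma, with 2 higher and 3 lower at an unadjusted p under 0.05). Of 30 genes of origin licensing and firing 2 were lower, of 28 genes of the replication fork 1, of 14 genes of deoxynucleotide synthesis 2, and none was higher. At an unadjusted p under 0.05, 9, 9 and 5 genes of these lists were lower and none was higher (limma). Their medians, -0.32, -0.22 and -0.30, lay below that of all genes, 0.07, and 25 of 30, 23 of 28 and 11 of 14 members had a negative difference. The first 12 h array was the lower one: the medians of the 3 lists relative to the unsynchronised mean were -0.49, -0.34 and -0.42 on it and -0.09, -0.14 and -0.12 on the second.

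Ccne1, the cyclin that drives entry into S phase with Cdk2, had 237 and 293 at 12 h and 266 and 273 in unsynchronised cells, a log2 difference of -0.03 with a 95% interval from -0.37 to 0.30. The transcription factor E2f1 read 84.4 and 105 at 12 h against 94.4 and 89.8 in unsynchronised cells (-0.29 to 0.36), and Cdc6, a loader of the replicative helicase, 94.2 and 149 at 12 h against 119 and 113 in unsynchronised cells (-0.47 to 0.53). The arrays of the groups overlapped in these 3 genes, and the intervals allow a difference in either direction within the bounds given. Pcna, the sliding clamp of the replication fork, gave 722 and 824 at 12 h and 862 and 787 in unsynchronised cells, with overlapping arrays. Against starved cells all 4 had risen, Cdc6 the most (2.59 on the log2 scale, limma adjusted p = 2.4e-05) and Pcna the least (0.74, limma adjusted p = 0.011). Cdc25a, the phosphatase that activates Cdk2, had 112 and 153 at 12 h and 151 and 149.9 in unsynchronised cells (limma adjusted p = 0.5), and Brca1, of recombination repair, 27.7 and 39.4 at 12 h and 45.03 and 37.2 in unsynchronised cells (limma adjusted p = 0.38). Neither passed the test, and the arrays of both genes overlapped.

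The helicase subunit Mcm5 and the ribonucleotide reductase subunit Rrm2 lay between these genes and the mitotic ones. Mcm5 read 235 and 348 at 12 h and 387 and 375 in unsynchronised cells, a log2 difference of -0.41 that did not pass the test (limma adjusted p = 0.18). Rrm2 read 341 and 419.7 at 12 h and 524 and 532 in unsynchronised cells, a difference of -0.48 (limma adjusted p = 0.069). In both genes the 12 h arrays were below the unsynchronised ones, without passing the test across genes. The promoter of Mcm5 is shown beside those of the mitotic genes because it holds matches to the E2F site and no CHR match; it was chosen after the values were seen. It lies in the same RefSeq build at chr8:75109259-75109558, plus strand, and capitals mark E2F matches (TTTCCCGC, TTTCGCGC, TTTGCCGC or TTTGGCGC, either strand) and CCAAT.
Mcm5: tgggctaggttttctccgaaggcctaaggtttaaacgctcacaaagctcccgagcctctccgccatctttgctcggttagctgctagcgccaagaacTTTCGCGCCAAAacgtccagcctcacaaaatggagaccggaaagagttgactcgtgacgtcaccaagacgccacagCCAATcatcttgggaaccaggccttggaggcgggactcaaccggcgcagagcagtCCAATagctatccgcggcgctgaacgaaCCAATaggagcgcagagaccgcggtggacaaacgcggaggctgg
The E2F matches at -153 and -149 overlap each other, and CCAAT matches start at -77, -22 and 7. An E2F match was found in 18 of 46 windows (39.1%) of the 2 replication lists, in 56 of 255 windows (22.0%) of S genes, in 16 of 197 (8.12%) of G2-M genes, in 4.44% of the windows of all genes tested and in 2.32% of all promoter windows.

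Single members of the replication lists passed the test. Dbf4, the subunit that activates the Cdc7 kinase at origins, had 83.8 and 111 at 12 h and 196 and 205 in unsynchronised cells, a log2 difference of -1.05 (SE 0.16, limma adjusted p = 0.0027). Tk1, thymidine kinase of the salvage pathway, stood at 108 and 139 at 12 h against 245 and 277 in unsynchronised cells (-1.09, SE 0.17, limma adjusted p = 0.003). The groups did not overlap for either gene. The replication factor Mcm10, the polymerase subunit Pole and the large ribonucleotide reductase subunit Rrm1 also fell, by 0.56, 0.85 and 0.71 on the log2 scale. Of 24 genes of homologous recombination and fork repair 3 were lower, and 11 were lower and 1 higher at an unadjusted p under 0.05 (limma). The list median was -0.45, and 21 of 24 members had a negative difference. The 3 genes were Fanci and Fancd2, partners in the Fanconi anaemia pathway, and the helicase Blm. Fancd2 and Blm differed by -1.34 and -0.81 on the log2 scale, and Fanci, under 20 on both 12 h arrays, was at least 1.32-fold lower. Of 18 genes of chromatin assembly and DNA methylation 17 had a negative difference, with a median of -0.29 and 6 lower at an unadjusted p under 0.05, and the histone chaperone Asf1b was lower (-0.65, SE 0.15, limma adjusted p = 0.026). All 8 replication-dependent histone genes tested, out of 50 listed, had a negative difference, from -1.34 to -0.56 with a median of -0.77, and all 8 were lower at an unadjusted p under 0.05 (limma). Of these, 3 passed the adjusted test (H2bc3, H2ac10 and H2ac21, with log2 differences of -1.34, -0.88 and -0.77), and copies of these genes are nearly identical, so their probe sets may share signal.

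The study's own list of cell cycle genes, with phases assigned in human fibroblasts, was read through its mouse orthologues. Part of that list was chosen with these arrays in view, so it is not independent evidence of a direction. Of 239 G2-M genes tested (307 listed), 114 (47.7%) were lower and none was higher (limma, with 159 lower and 2 higher at an unadjusted p under 0.05), with a median of -0.62. Of 296 S genes tested (360 listed), 31 (10.5%) were lower and none was higher (90 and 6 at an unadjusted p under 0.05), with a median of -0.25. Among the S genes with the largest falls were Spdl1 and Kntc1, which act at the kinetochore, the cohesin acetyltransferase Esco2 and Ddias, an inhibitor of apoptosis, with log2 differences of -1.40, -1.33, -1.28 and -1.25. By array, the median of the S genes relative to the unsynchronised mean was -0.39 and -0.10 at 12 h and 0.02 and -0.02 in unsynchronised cells, and that of the G2-M genes -0.74 and -0.56 at 12 h and -0.04 and 0.04 in unsynchronised cells. The counts of both lists fell in fits with an array left out. Because such fits leave 1 array in a group and widen the standard error, the fall alone does not show that either list rested on a particular array. By the medians just given, the first 12 h array lay further below the unsynchronised mean than the second in both lists.

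In the lists of growth genes few members passed the test. Among 52 genes of ribosome biogenesis, 18 tRNA synthetases, 19 translation initiation factors, 33 cytosolic ribosomal proteins, 28 proteasome subunits and 35 genes of oxidative phosphorylation, none passed the test in either direction (limma), and the medians lay between -0.16 and -0.04. At an unadjusted p under 0.05, 3 genes of ribosome biogenesis, 1 initiation factor and 1 ribosomal protein were lower and no gene of these lists was higher. The nucleolar proteins Npm1 and Ncl, the most abundant of the first list, had 936 and 1108 (Npm1) and 725 and 929 (Ncl) at 12 h, against 1248 and 1168 (Npm1) and 1053 and 979 (Ncl) in unsynchronised cells. Their 12 h arrays were each below the unsynchronised ones, with limma adjusted p values of 0.44 and 0.26. Of 35 genes of nucleocytoplasmic transport 2 fell, the Ran GTPase activator Rangap1 (-0.76) and the exportin Cse1l (-0.57). In that list 15 genes were lower and none was higher at an unadjusted p under 0.05 (limma), the median was -0.33, and 30 of 35 members had a negative difference. Ccnd1, the D-type cyclin of early G1, read 794 and 792 at 12 h and 611 and 625 in unsynchronised cells, higher on both arrays but not past the test (limma adjusted p = 0.21), and the growth regulator Myc read 453 and 403 at 12 h and 407 and 505 in unsynchronised cells, with overlapping arrays.

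The inhibitors of cyclin-dependent kinases did not move together. Of 7 tested only Cdkn1c, the inhibitor p57, passed the test: it had 60.5 and 85.1 at 12 h and 20.4 and 24.5 in unsynchronised cells, a log2 difference of 1.68 (SE 0.22, limma adjusted p = 0.0011). Its 12 h arrays lay between those of unsynchronised and of starved cells (194 and 231 at 0 h). Cdkn1a, the inhibitor p21, had 1965 and 1739 at 12 h and 1877 and 1837 in unsynchronised cells, and Cdkn1b, the inhibitor p27, 76.02 and 69.8 at 12 h and 60.5 and 75.5 in unsynchronised cells. Their arrays overlapped, with 95% intervals of the log2 difference from -0.34 to 0.33 and from -0.34 to 0.55.

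Genes of the first response to serum were below the level of growing cells at 12 h. Immediate early genes are those that serum switches on within minutes through factors already present in the cell. Of 33 tested, 14 were lower and 1, Klf10, was higher, with a list median of -0.55. Lower members were not particular to 12 h: against unsynchronised cells 10 were lower at 24 h, with none higher. At 24 h 1.58% of all genes were lower. The list median relative to unsynchronised cells was -0.45 at 18 h and -0.41 at 0 h, with members past the test in both directions at 0 h. The median difference of the list between 12 h and 24 h was -0.03. Egr1, a zinc finger factor of this response, had 154 and 141 at 12 h and 369.9 and 401 in unsynchronised cells, a log2 difference of -1.39 (SE 0.14, limma adjusted p = 0.00036). The related Egr2 read 54.8 and 49.7 at 12 h against 146 and 156 in unsynchronised cells (-1.53, SE 0.18, limma adjusted p = 0.00071), and Dusp5, a phosphatase that inactivates ERK, 90.95 and 109 at 12 h against 235 and 200.4 in unsynchronised cells (-1.12, SE 0.16, limma adjusted p = 0.0016). No array of one group reached into the other for these 3 genes. The starved arrays, before serum, held more Egr1 than the 12 h arrays (505 and 511 at 0 h), and the single array at 1 h read 1709. The count of immediate early genes that were lower depended on each of the 4 arrays: it was 5 and 4 with the first or second 12 h array left out, and 3 and 6 with the first or second unsynchronised array left out.

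Targets of SRF, MRTF and YAP, which include the contractile actin cytoskeleton, were lower as well: 10 of 30 passed the test, all downward, with a median of -0.34. Cnn1, the actin-binding protein calponin, stood at 228 and 208 at 12 h and 681 and 966 in unsynchronised cells, a log2 difference of -1.90 (SE 0.17, limma adjusted p = 0.00022). Smooth muscle actin Actg2 read 116 and 82.6 at 12 h against 235 and 351 in unsynchronised cells (-1.55), the YAP target Ankrd1 348 and 348 at 12 h against 768 and 912 in unsynchronised cells (-1.27), and the myosin light chain Myl9 655 and 577 at 12 h against 1316 and 1533 in unsynchronised cells (-1.21). In each of them both 12 h arrays were lower than both unsynchronised arrays. The transcription factor Srf itself had 198 and 169 at 12 h and 292 and 326 in unsynchronised cells (-0.76, SE 0.15, limma adjusted p = 0.012). At 24 h 11 of the 30 genes were lower than in unsynchronised cells (1.58% of all genes were), and their median difference between 12 h and 24 h was 0.04. The count of 10 changed to 4, 2, 6 and 2 without the first and second 12 h array and the first and second unsynchronised array.

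Windows of 2 genes of this list that hold the CArG box, the element that SRF binds, are shown with the match in capitals: Myl9 (chr2:156775214-156775513, plus strand) and Srf (chr17:46556113-46556412, minus strand). This motif was added after the genes that differed had been seen.
Myl9: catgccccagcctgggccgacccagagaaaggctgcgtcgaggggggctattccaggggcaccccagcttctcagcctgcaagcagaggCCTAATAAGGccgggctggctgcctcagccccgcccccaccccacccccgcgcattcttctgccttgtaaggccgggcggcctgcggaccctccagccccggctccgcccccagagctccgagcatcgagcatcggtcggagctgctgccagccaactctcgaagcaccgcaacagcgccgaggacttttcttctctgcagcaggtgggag
Srf: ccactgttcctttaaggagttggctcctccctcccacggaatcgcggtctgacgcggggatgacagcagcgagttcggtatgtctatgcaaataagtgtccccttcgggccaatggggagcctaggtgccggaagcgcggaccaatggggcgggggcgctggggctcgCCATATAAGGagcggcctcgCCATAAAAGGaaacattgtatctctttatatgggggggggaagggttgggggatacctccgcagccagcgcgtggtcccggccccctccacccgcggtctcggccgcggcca
The match of Myl9 starts at -161 and those of Srf at -82 and -62. Of the 9 windows found for the 10 genes of the list that were lower, 5 held such a match, as did 7 of 23 windows (30.4%) of the whole list, which was made up of SRF targets among others, against 1.36% of the windows of all genes tested and 1.57% of all promoter windows.

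The largest fitted differences of the comparison were rises. Plet1, a cell surface protein first described in placenta and epithelia, had 128 and 255 at 12 h and 11.2 and 9.59 in unsynchronised cells, at least 9.02-fold higher at 12 h (limma adjusted p = 0.00021). Serpinb2, an inhibitor of plasminogen activators, had 385 and 542 at 12 h against 54.01 and 26.9 in unsynchronised cells, a 11.99-fold difference of geometric means (log2 3.58, SE 0.34, limma adjusted p = 0.00025). Each 12 h array was above each unsynchronised array for both genes, as the rule that picked them required. In the time course both were higher before 12 h than at it: the single array at 6 h read 574 for Plet1 and that at 8 h 1205 for Serpinb2, and at 24 h the arrays read 21.4 and 10.7 for Plet1 and 23.5 and 15.8 for Serpinb2. The log2 differences between 12 h and 24 h, 3.57 for Plet1 and 4.57 for Serpinb2, passed the test (limma adjusted p = 0.00043 and 0.00011).

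Next in size were Penk, the precursor of enkephalins, with 591 and 594 at 12 h and 80.2 and 101 in unsynchronised cells (log2 difference of 2.72, SE 0.16, limma adjusted p = 6.1e-05), and Itga2, the collagen-binding integrin subunit, with 82.2 and 158 at 12 h against 19.9 and 15.03 in unsynchronised cells (at least 5.7-fold higher, limma adjusted p = 0.00053). Nptx1, a neuronal pentraxin, had 33.8 and 64.7 at 12 h and 6.73 and 7.78 in unsynchronised cells, at least 2.34-fold higher. Acpp, an acid phosphatase, had 56.4 and 82.4 at 12 h and 15.1 and 11.3 in unsynchronised cells, at least 3.41-fold higher, and Olr1, a scavenger receptor for oxidised lipoprotein, differed by 2.23 on the log2 scale. None of these overlapped between the groups, which the rule that picked them also required. Olr1 kept its level to 24 h (571 and 436 at 12 h, 432 and 481 at 24 h), and its log2 difference between the times of 0.13 did not pass the test (limma adjusted p = 0.86).

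Other large rises belonged to genes that were still higher in starved cells. Ogn, the small matrix proteoglycan osteoglycin, had 455 and 561 at 12 h and 90.6 and 100.04 in unsynchronised cells, but 1704 and 1676 at 0 h. The growth factor binding protein Igfbp3 read 1009.9 and 894 at 12 h against 205 and 216 in unsynchronised cells, with 1191 and 1679 at 0 h, and the angiotensin receptor Agtr2 43.03 and 39.1 at 12 h against 10.8 and 9.16 in unsynchronised cells, with 239 and 318 at 0 h (at least 2.05-fold higher at 12 h than in unsynchronised cells). All 3 lay between the starved and the unsynchronised arrays. Over the 510 genes that were higher at 12 h, the 12 h mean was above both the starved and the unsynchronised mean for 289 and between them for 221, whereas over the 288 lower genes it was between them for 175 and below both for 113. Among all genes tested it was above both for 3212, between them for 5214 and below both for 1541, and these counts share the 12 h and unsynchronised arrays with the test.

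**Figure D3:**
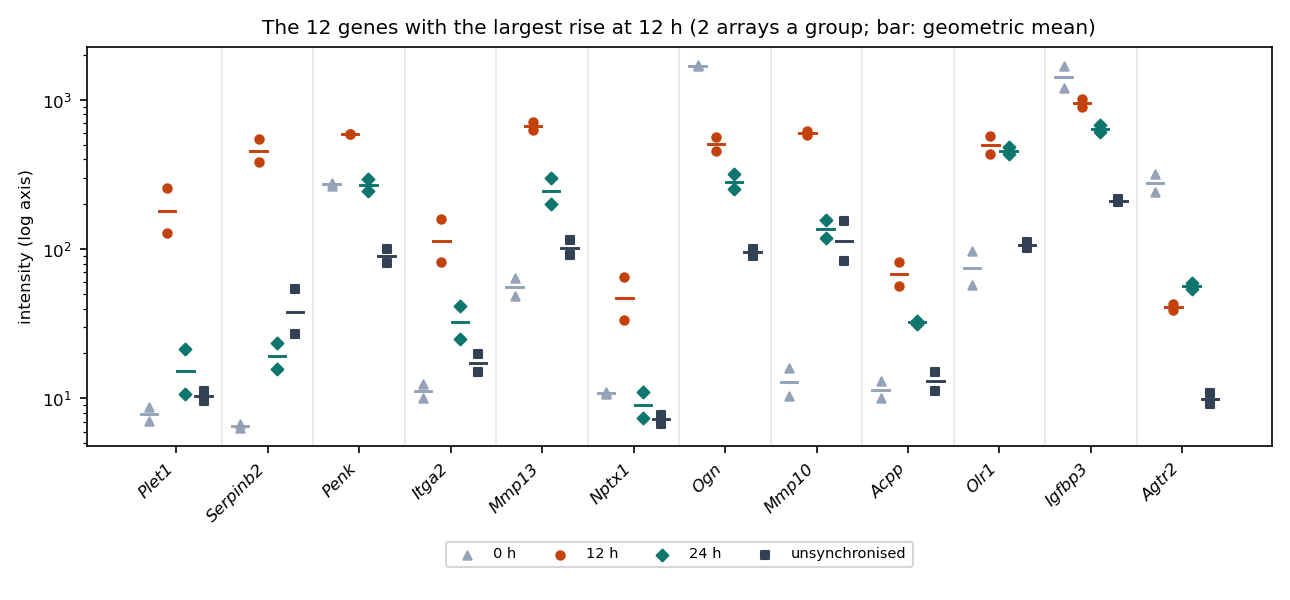
Intensity (log axis) of the 12 genes with the largest rise, on the 2 arrays each at 0 h (triangles), 12 h (circles), 24 h (diamonds) and in unsynchronised cells (squares), with the geometric mean as a bar. Among the groups shown, Plet1, Serpinb2, Penk, Itga2, Mmp13, Nptx1, Mmp10 and Acpp were highest at 12 h. Ogn, Igfbp3 and Agtr2 were highest at 0 h, and the Olr1 arrays overlapped between 12 h and 24 h. Each gene that was highest at 12 h here read higher on a single array before 12 h, as Itga2 did at 8 h (294).

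Proteases that degrade matrix formed one group among the rises. Of 23 matrix proteases and inhibitors 8 were higher and 1 lower, with a list median of 0.31. At 24 h 6 of the list were higher than in unsynchronised cells and 3 lower, where 2.99% and 1.58% of all genes were. The list median at 24 h was 0.27. Mmp13, a collagenase, had 629 and 705 at 12 h and 115 and 90.6 in unsynchronised cells, a log2 difference of 2.71 (SE 0.21, limma adjusted p = 0.00013). The stromelysin Mmp10 read 584 and 616 at 12 h and 154 and 83.6 in unsynchronised cells (log2 difference 2.40), the related Mmp3 904 and 972 at 12 h and 269 and 277 in unsynchronised cells (1.78), and the gelatinase Mmp9 393 and 396 at 12 h against 87.6 and 126 in unsynchronised cells (1.91). All 4 genes had arrays that did not overlap. All 4 were above the starved level by more than 3 on the log2 scale, Mmp10 by 5.54 and Mmp13 by 3.57. The single array at 8 h read 770 for Mmp13 and 772 for Mmp10, above both 12 h arrays. Plau, the urokinase plasminogen activator, was the member that fell (165 and 202 at 12 h, 311 and 290.2 in unsynchronised cells, log2 -0.72, SE 0.14, limma adjusted p = 0.012). The lowest count of higher members without any 1 array was 6.

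The promoters of Mmp13 (chr9:7272264-7272563, plus strand) and Mmp10 (chr9:7502092-7502391, plus strand) are shown with the AP-1 site (TGACTCA, either strand) in capitals, a motif that was added after the values had been seen.
Mmp13: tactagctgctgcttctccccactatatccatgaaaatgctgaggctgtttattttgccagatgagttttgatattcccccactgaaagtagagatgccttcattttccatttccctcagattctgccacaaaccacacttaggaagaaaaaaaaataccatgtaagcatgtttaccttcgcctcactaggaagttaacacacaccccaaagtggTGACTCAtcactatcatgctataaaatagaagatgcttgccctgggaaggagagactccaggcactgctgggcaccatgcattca
Mmp10: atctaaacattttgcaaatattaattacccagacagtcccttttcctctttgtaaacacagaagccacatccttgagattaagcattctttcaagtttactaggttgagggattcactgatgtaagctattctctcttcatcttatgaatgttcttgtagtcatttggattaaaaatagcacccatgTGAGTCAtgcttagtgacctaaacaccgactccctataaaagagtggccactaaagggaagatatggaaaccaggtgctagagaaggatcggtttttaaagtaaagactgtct
The matches start at -35 in Mmp13 and at -63 in Mmp10. Such a match was present in 3 of 5 windows found for the proteases that were higher, in 4 of 15 windows (26.7%) of the whole protease list, in 14 of 105 windows (13.3%) of all genes that were higher by at least 2-fold, in 24 of 393 windows (6.11%) of all genes that were higher, in 3.43% of the windows of the genes tested and in 5.17% of all promoter windows.

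Of 26 cytokines and chemokines, signalling proteins that cells secrete, 10 were higher and 1, Cxcl10, was lower. The median was 0.42, and 8 of the 26 had a negative difference. Tslp, an interleukin-7-like cytokine, had 53.3 and 41.8 at 12 h and 13.3 and 19.2 in unsynchronised cells, at least 2.36-fold higher (limma adjusted p = 0.0025). Of the cytokines that signal through gp130, Il11 read 49.3 and 79.7 at 12 h and 27.2 and 23.1 in unsynchronised cells (1.32), and Il6 112 and 121 at 12 h and 52.1 and 52.2 in unsynchronised cells (1.16). Both were higher on each 12 h array than on each unsynchronised array. Vegfc, a growth factor for lymphatic vessels, was higher by 1.12, and the interferon-induced chemokine Cxcl10 stood at 20.2 and 22.2 at 12 h and 57.6 and 54.7 in unsynchronised cells (-1.41). The count of higher cytokines was 5 and 6 without the first and second 12 h array and 5 without the first unsynchronised array. Macrophages also make several of these cytokines and proteases, and the part of the macrophage markers that moved with them was not tested.

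Some genes of the matrix and of the lysosome were higher. Of 46 genes of the fibroblast extracellular matrix 12 were higher and none lower (limma, with 18 and 1 at an unadjusted p under 0.05; 7 higher without the second 12 h array), with a median of 0.25. Elastin (Eln) had 52.98 and 70.3 at 12 h and 14.7 and 16.3 in unsynchronised cells, collagen Col14a1 19.6 and 35.5 at 12 h and 9.28 and 8.29 in unsynchronised cells, and the proteoglycan lumican (Lum) 571 and 524 at 12 h and 183 and 183 in unsynchronised cells. Lum differed by 1.58 on the log2 scale, and Eln and Col14a1, under 20 on both unsynchronised arrays, were at least 3.05-fold and 1.32-fold higher at 12 h. Each of the 3 genes was higher still at 0 h, with a drop from the starved level that passed the test. At 24 h 9 of the 46 matrix genes were higher than in unsynchronised cells and none lower, where 2.99% of all genes were higher. Their median difference between 12 h and 24 h was 0.10. Of 34 lysosome and autophagy genes 7 were higher, with a median of 0.37, and 33 of 34 had a positive difference. The cathepsins Ctsf and Ctsh, the galactosidase Gla and the cholesterol transporter Npc1 rose by 1.12, 0.73, 0.73 and 0.72 on the log2 scale. With the first or second 12 h array left out the count was 1 and 3, and with the first or second unsynchronised array left out 4 and 1. The E-box (CACGTG, a palindrome), searched as the other motifs were, was found in 34 of 393 windows (8.65%) of all genes that were higher, in 10.7% of the windows of the genes tested and in 7.24% of all promoter windows. The summed macrophage markers, 1935 and 1847 at 12 h against 1230 and 1219 in unsynchronised cells, moved in the same direction. Their part in the lysosomal rise was not tested. At 24 h 3 of the 34 lysosomal genes were higher than in unsynchronised cells, where 2.99% of all genes were, and the list median was 0.31.

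Among FoxO targets and genes of growth arrest 6 of 30 were higher and 1, Cited2, lower, but 3 and 1 were higher with the first or second 12 h array left out, and 2 and 1 with the first or second unsynchronised array left out. Selenop, a selenium carrier, Mxd4, a Max partner that opposes Myc, Txnip, an inhibitor of glucose uptake, and Pdgfra, the PDGF receptor, were among the genes that rose, the last 3 by 0.91, 0.85 and 0.81 on the log2 scale. Selenop had 24.7 and 23.3 at 12 h and 13.00 and 10.3 in unsynchronised cells, and 55.7 and 55.3 at 0 h, at least 1.2-fold higher at 12 h than in unsynchronised cells. Its mean lay between the starved and the unsynchronised level, as that of Mxd4 did (156 and 166 at 12 h, 85.9 and 85.4 in unsynchronised cells and 214 and 253 at 0 h).

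Of the 12 largest falls, 2 belonged to genes outside the lists. Trav9d-3, a T cell receptor segment, had 12.99 and 12.2 at 12 h and 49.7 and 66.8 in unsynchronised cells, and Lce1h, a gene of the skin's cornified envelope, 8.66 and 10.4 at 12 h and 40.1 and 39.7 in unsynchronised cells. They lay below 20 on every refed or starved array of the series and passed the minimum only through the unsynchronised arrays, so they are given as at least 2.88-fold and 1.99-fold lower at 12 h. Both belong to families of closely similar copies, so the gene that gave the signal is uncertain.

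The comparison of 12 h with 24 h asks whether a difference from unsynchronised cells was the same at both times, because the unsynchronised arrays cancel in it. Over all genes 169 (1.7%) were higher and 190 (1.91%) lower at 12 h than at 24 h, 3.6% in all. The counts depended on each of the 4 arrays: 59 and 77 were higher and lower without the first 12 h array, 53 and 117 without the second, 51 and 86 without the first 24 h array and 103 and 121 without the second. Of the 239 G2-M genes 101 were lower at 12 h than at 24 h, while of the 296 S genes 15 were lower and 2 higher. At 24 h 1 G2-M gene was higher and 1 lower than in unsynchronised cells, where 2.99% and 1.58% of all genes were. Of the 510 genes that were higher at 12 h than in unsynchronised cells, 86 were also higher at 12 h than at 24 h, and of the 288 lower genes 122 were also lower at 12 h than at 24 h. These comparisons share the 12 h arrays.

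By distance from the unsynchronised arrays, 12 h lay between starved cells and 18 h. The root mean square log2 difference over all genes tested from the mean of the unsynchronised arrays was 0.78 and 0.72 at 0 h, 0.43 and 0.40 at 12 h, 0.32 and 0.34 at 18 h and 0.37 and 0.36 at 24 h. The nearest array was that at 20 h, at 0.32, and the array at 26 h stood apart from its neighbours, at 0.54. The unsynchronised arrays themselves lay 0.11 from their mean. Over all genes the SD between duplicates, on the log2 scale, was 0.17 at 12 h and 0.16 in unsynchronised cells. It was 0.29 at 0 h, 0.16 at 18 h and 0.20 at 24 h, and these pairs also enter the spread used by the test.

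**Figure D4:**
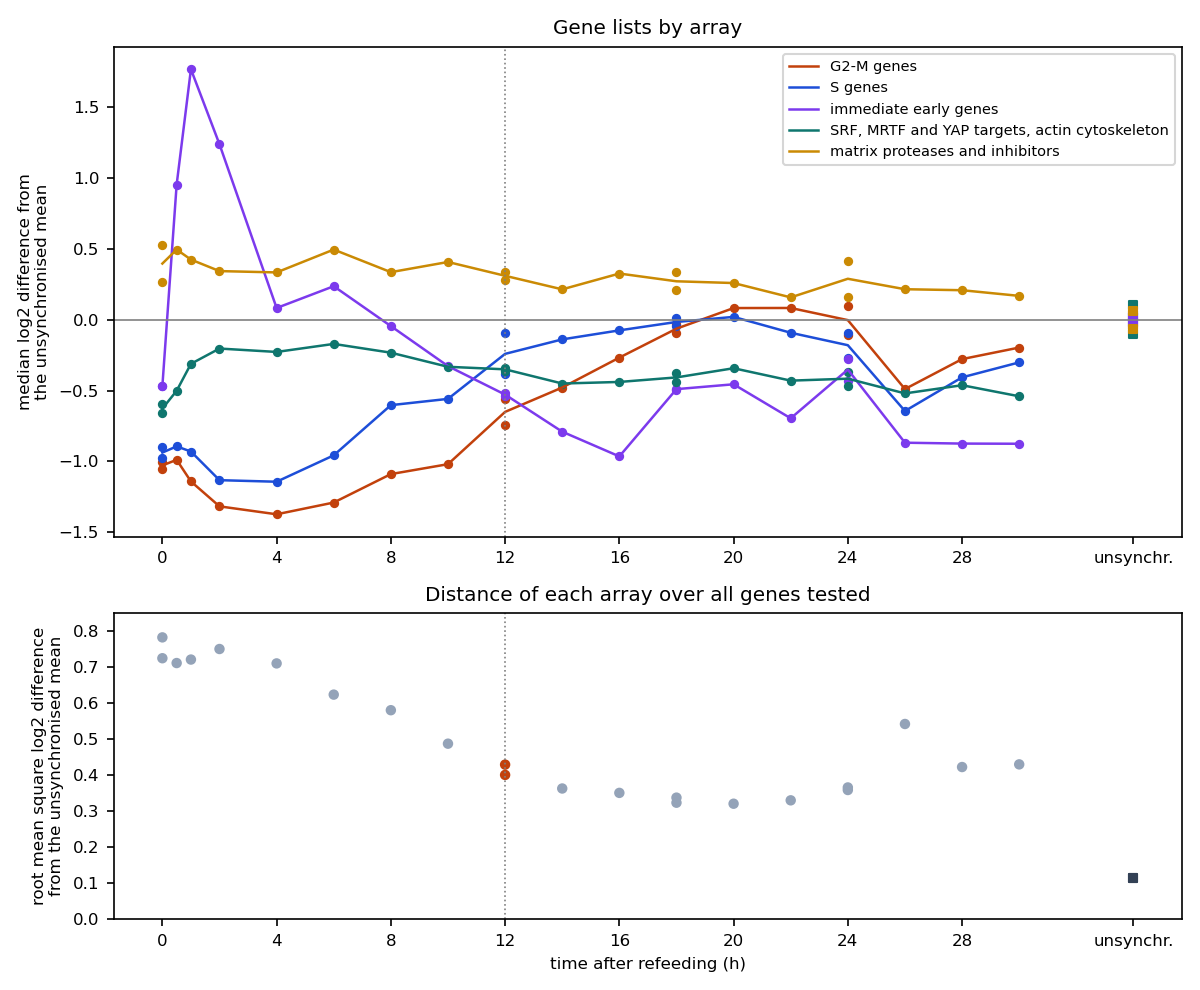
Upper panel: median log2 difference of 5 gene lists from the unsynchronised mean on each array, by time after refeeding (lines join the means of each time; squares at the right are the unsynchronised arrays). Lower panel: root mean square log2 difference of each array from the unsynchronised mean over all genes tested, with the 12 h arrays coloured; at 12 h (dotted line) the G2-M genes lay at -0.74 and -0.56 and the S genes at -0.39 and -0.10.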

How the data were processed

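Affymetrix Mouse Gene 2.0 ST arrays measured the RNA of MEF. The authors normalised the arrays with RMA in the oligo package (versions not given in the sources used here) and deposited intensities, which a header calls log2 but which run up to 6335 and are linear. The log2 of each deposited intensity was taken here. Probe sets that reached 20 on at least 2 of the 24 arrays were kept, with the probe set of highest mean for each gene: 14182 probe sets passed and 9967 genes were tested. Of 41345 probe sets 23521 had 1 gene and 1820 several in the platform annotation, 84 were named from the study's table, and the rest were left out. Where both arrays of the lower group lay under 20, the fold of a named gene was bounded against 20. Arrays give no depth, so precision is limited by 2 arrays a group. Limma 3.58.1 in R 4.3.3 fitted 1 mean for each of 19 groups over the 24 arrays, with Benjamini-Hochberg adjustment over all genes and an adjusted p under 0.05. Python 3.11.15, numpy 2.4.6, pandas 2.3.3 and matplotlib 3.10.9 served for the rest, and the fit was tested on simulated data.

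Named genes were the 12 largest differences in each direction among genes past the test with separate arrays, at most 4 of the members past the test in each list, the 2 most abundant of a list with none, and a set of core cell cycle genes. Members and lists were chosen with earlier results of these data known. A few further members that passed the test (Srf, Plau, Vegfc, Klf10, Cited2, Brinp1, Aldh1a3 and the lipid and stress genes that differed between 12 h and 24 h) were picked with their values in view. The alternatives tried were the minimum intensity, each probe set by itself, centring, quantile normalisation, a variance trend, a replicate block, the compared groups alone, a fold threshold and leaving out each array. Promoter windows are RefSeq sequence of GRCm38.p6.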

Additional observations from a re-analysis of the deposited data

Results flagged for a closer look

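The differences below were taken up because the distance of a gene from the unsynchronised level was not the same at 12 h and at 24 h, by the test of 12 h against 24 h itself (limma, adjusted p under 0.05). Of the 12 genes with the largest rise at 12 h, 9 differed between the times. Over all genes 1.7% were higher and 1.91% lower at 12 h than at 24 h. The 12 genes were picked on the same 12 h arrays, which favours such a difference, so the count is a description only. The log2 difference of 12 h minus 24 h was 3.57 for Plet1, 4.57 for Serpinb2, 1.14 for Penk, 1.82 for Itga2, 1.45 for Mmp13, 2.37 for Nptx1, 0.83 for Ogn, 2.14 for Mmp10 and 1.07 for Acpp. Nptx1 lay under 20 on both 24 h arrays, so its value depends on intensities below the minimum. All 9 were nearer to the unsynchronised level at 24 h than at 12 h by their group means, and none of the 3 others (Olr1, Igfbp3 and Agtr2) passed the test.

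Of the 12 genes with the largest fall, 9 differed likewise, all of them genes of mitosis and cytokinesis. These 12 were also picked on the 12 h arrays that the test uses, so this count too is a description only. Between 12 h and 24 h the log2 difference was -2.20 for Ccnb2, -2.12 for Ccnb1, -2.13 for Cenpe, -2.01 for Kif23, -1.87 for Fam83d, -1.90 for Cdc20, -1.85 for Aurka, -2.16 for Kif14 and -2.42 for Gas2l3, of which Kif14 lay under 20 on both 12 h arrays.

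Only 2 genes passed the test in opposite directions at 12 h and at 24 h against unsynchronised cells, and both were chosen after their values were seen. Brinp1, a gene of neurons, had 170.2 and 192 at 12 h, 64.00 and 55.6 at 24 h and 88.98 and 98.7 in unsynchronised cells. Its log2 difference from unsynchronised cells was 0.95 at 12 h and -0.65 at 24 h, and 12 h minus 24 h was 1.6. Aldh1a3, an enzyme that makes retinoic acid, had 80.8 and 116 at 12 h, 18.9 and 11.4 at 24 h and 41.4 and 37.9 in unsynchronised cells. The differences were 1.29 at 12 h and -1.44 at 24 h, and 2.72 between the times, with both 24 h arrays under 20. The single arrays at 4 h and 6 h read 470.4 and 399 for Brinp1 and 168 and 264 for Aldh1a3.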

How the results depend on the processing

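With 2 arrays a group, leaving out single arrays moved many counts, and the intensities of dim genes (near the minimum of 20) limit the rest. No sign of any of the 100 named genes past the test changed under any alternative, but 36 and 28 of these 100 genes lost the call with the first or second 12 h array left out, and 32 and 35 with the first or second unsynchronised array left out. The cause of the changes below was not tested.

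Without 1 array at a time, 24 h arrays included, 157 to 486 genes were higher and 99 to 273 lower than in unsynchronised cells, and 51 to 120 higher and 77 to 161 lower than at 24 h. The ranges of lower genes were 62 to 112 for G2-M genes, 5 to 31 for S genes, 11 to 16 for mitotic cyclins, 8 to 24 for the kinetochore, 15 to 19 for cytokinesis, 13 to 21 for kinesins, 4 to 9 for condensins, 3 to 12 for immediate early genes and 2 to 10 for SRF targets. Those of higher genes were 5 to 9 for cytokines, 7 to 12 for matrix genes, 6 to 8 for proteases and 1 to 7 for lysosomal genes. With at least 2-fold required, 148 genes were higher and 136 lower, 58 and 110 between 12 h and 24 h, and the counts were 9 for S genes, 5 for condensins, 4 for immediate early genes, 4 for SRF targets, 5 for cytokines, 5 for proteases and 1 for lysosomal genes. With each of the 14182 probe sets tested by itself, 277 probe sets were higher, and 64 between 12 h and 24 h. These are not counts of genes. In that fit 13 S genes, 6 condensin genes and 8 immediate early genes were lower and 4 lysosomal genes higher, by the probe set used for each gene elsewhere. When the fit held only those groups that were compared, 834 genes were higher, 11 of them lysosomal.

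The replicate numbers did not pair the samples: deviations of same-numbered arrays correlated at -0.21 between 12 h and unsynchronised cells and between -0.37 and 0.22 over all pairs of groups. With the replicate block 446 genes were higher and 259 lower. With the 12 h numbers crossed, an alternative added after seeing the data, 509 were higher and 291 lower.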

Other observations

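Some genes of lipid synthesis were below the 24 h level at 12 h. Of 20 genes of cholesterol synthesis and uptake none passed the test against unsynchronised cells (limma, with 1 lower at an unadjusted p under 0.05), while 6 were below the 24 h level at 12 h, where 1.91% of all genes were. The lanosterol synthase Lss had 159 and 136 at 12 h and 322 and 270.01 at 24 h, with 148 and 173 in unsynchronised cells, a log2 difference from 24 h of -1.002 (SE 0.16, limma adjusted p = 0.006). The 12 h arrays were below both 24 h arrays. Nsdhl, of the same pathway, differed from 24 h by -0.96. Of 12 genes of fatty acid synthesis none passed against unsynchronised cells (3 lower at an unadjusted p under 0.05) and 4 were lower at 12 h than at 24 h: the desaturases Scd1, Fads1 and Fads2 and the phosphatidate phosphatase Lpin1, with log2 differences of -0.64, -0.66, -0.85 and -0.92. Of 22 genes of glycolysis and hypoxia 1 was lower at 12 h than in unsynchronised cells, the phosphofructokinase Pfkl (87.7 and 95.01 at 12 h, 139 and 158 in unsynchronised cells, log2 -0.70, SE 0.18, limma adjusted p = 0.039), and 3 were lower than at 24 h, with Pdk1, which restrains the entry of pyruvate into mitochondria, at -1.26 and the mitophagy receptor Bnip3 at -1.09.

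The stress and defence lists held few differences from unsynchronised cells. None of 21 p53 targets, 24 heat shock proteins and chaperones, or 17 NRF2 targets and metallothioneins passed the test (limma, with 4, 2 and 3 at an unadjusted p under 0.05), with medians of -0.06, -0.13 and -0.29. Of 33 genes that respond to unfolded proteins or lack of amino acids 2 were higher, the chaperone Creld2 (642 and 687 at 12 h, 370.2 and 438 in unsynchronised cells) and the stress factor Ddit3 (107 and 87.7 at 12 h, 44.02 and 45.6 in unsynchronised cells), by 0.72 and 1.11. Of 27 interferon-stimulated genes Stat2, a subunit of the interferon-activated factor, was higher (131 and 110.3 at 12 h, 55.9 and 47.7 in unsynchronised cells) and the nucleotide kinase Cmpk2 lower, though its arrays were at or below 20 in both groups. Of 12 genes of antigen presentation and complement 3 were higher: Cd55, which limits complement, the class I molecule H2-T23 and the complement protease C1ra, by 0.96 on the log2 scale for Cd55 and at least 1.77-fold for H2-T23, whereas C1ra lay under 20 on all 4 arrays. The macrophage markers were higher as well, and their part in these was not tested. Of 13 clock genes Npas2, a partner of Bmal1, was higher (47.1 and 35.5 at 12 h, 10.99 and 16.96 in unsynchronised cells, at least 2.04-fold higher, limma adjusted p = 0.0017) and the repressor Nr1d2 lower (39.7 and 47.3 at 12 h, 71.9 and 78.6 in unsynchronised cells, log2 -0.79, SE 0.17, limma adjusted p = 0.015). Of 8 genes of polyamine synthesis the spermine oxidase Smox was higher and the antizyme Oaz1 lower, with log2 differences of 0.70 and -0.65.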
